A study of Xenopus tropicalis with 16 samples.

Results

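The genes described here had a higher level at neurula than at gastrula in control explants, kept it until the tailbud stage, were low at neurula in explants depleted of SUV4-20H enzymes, and were back near the control level at tailbud. In all, 244 genes met this description, out of 11997 genes with enough reads and 14373 genes in the count tables. They were chosen from measured levels in CPM, the count of a gene scaled to a common library total with TMM factors, with 1 added to each group mean. The control mean had to be at least 2 log2 units higher at neurula than at gastrula and to change by less than 1 log2 unit between neurula and tailbud. The neurula knockdown mean had to be at least 1.5 log2 units below the neurula control mean, a log2 ratio of -1.5 or less. The tailbud knockdown mean had to reach at least 0.8 times the tailbud control mean. The low neurula level, the near-control tailbud level and the rise in controls were thus what chose the genes. Counts of genes that passed a test on these values are given as a description of the choice and are no evidence for it.

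RNA was sequenced from Xenopus tropicalis animal caps, explants of prospective ectoderm cut from blastulae. The knockdown explants came from embryos injected with translation-blocking morpholinos against suv4-20h1 and suv4-20h2 together (the double morphants), and the control explants from embryos injected with a control morpholino (CoMo). Explants were collected at NF10 (gastrula), NF16 (neurula) and NF24 (tailbud) of the Nieuwkoop and Faber table, with 2 knockdown and 2 control libraries at the neurula stage and 3 of each at both other stages. Each library was made from a pool of explants, staged by sibling embryos. A morpholino that blocks translation need not lower its target mRNA, so the transcript level would not check the depletion, and the targets suv4-20h1 and suv4-20h2 were not analysed here. In pooled explants, fewer cells of a type and less RNA per cell cannot be told apart.

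SUV4-20H enzymes add methyl groups to histone H4 at lysine 20 and convert the monomethylated form, which PR-SET7 makes, to the dimethylated and trimethylated forms. Cultured animal caps become a mucociliary epidermis with multiciliated cells, ionocytes, mucus-secreting cells and basal cells. Between gastrula and neurula the explant leaves pluripotency, its cells are specified, and the genes of their differentiated functions come on. A gene that is low at one stage and back at the next can be late in its onset, which only a time series shows.

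The count tables name genes by assembly version 9 identifiers, and 0 of the 14373 identifiers matched the symbol table used here. The roles of the genes and the explants' cell type markers were therefore not analysed here. At most 2 identifiers are given for genes that were lower and 2 for genes that were higher, and other genes are described by their level.

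Libraries held between 10692685 and 40286023 fragments assigned to genes. The NF24 knockdown libraries held 10692685, 16488846 and 11874933 assigned fragments, fewer than each NF24 control library, which held 20715259, 18054098 and 19730529. Unmapped fragments made up 51.2%, 31.3% and 40.5% of the NF24 knockdown libraries and 23.99%, 31.4% and 34.0% of the NF24 control libraries. Replicates 1 and 3 of the NF24 knockdown thus stood apart in depth and unmapped share, and their values are given singly below. The paper reports that double-morphant explants fell apart into single cells at the tailbud stage. It also reports that the profiles of these replicates were heterogeneous in a principal component analysis, and it focused on the neurula stage. The part of this in the tailbud values was not tested.

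The median gene of the 244 was close to 1 CPM at gastrula in both conditions, while 35 of the 244 averaged at least 10 CPM in NF10 controls. The median level was 0.878, 1.02 and 0.746 CPM in the 3 NF10 knockdown libraries, against 0.803, 1.22 and 0.781 CPM in the NF10 control libraries. At NF16 the median was 10.3 and 10.7 CPM in the knockdown libraries, against 66.7 and 49.3 CPM in the control libraries. At NF24 it was 45.2, 57.3 and 36.6 CPM in the knockdown libraries, against 50.1, 43.7 and 53.4 CPM in the control libraries. The libraries of both conditions overlapped at gastrula, were apart at neurula by the choice of the genes, and overlapped again at tailbud, where knockdown replicate 2 was the highest and knockdown replicate 3 the lowest of the 6. Over all 11997 genes the median level lay between 21.5 and 24.8 CPM in each of the 16 libraries.

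**Figure D1:**
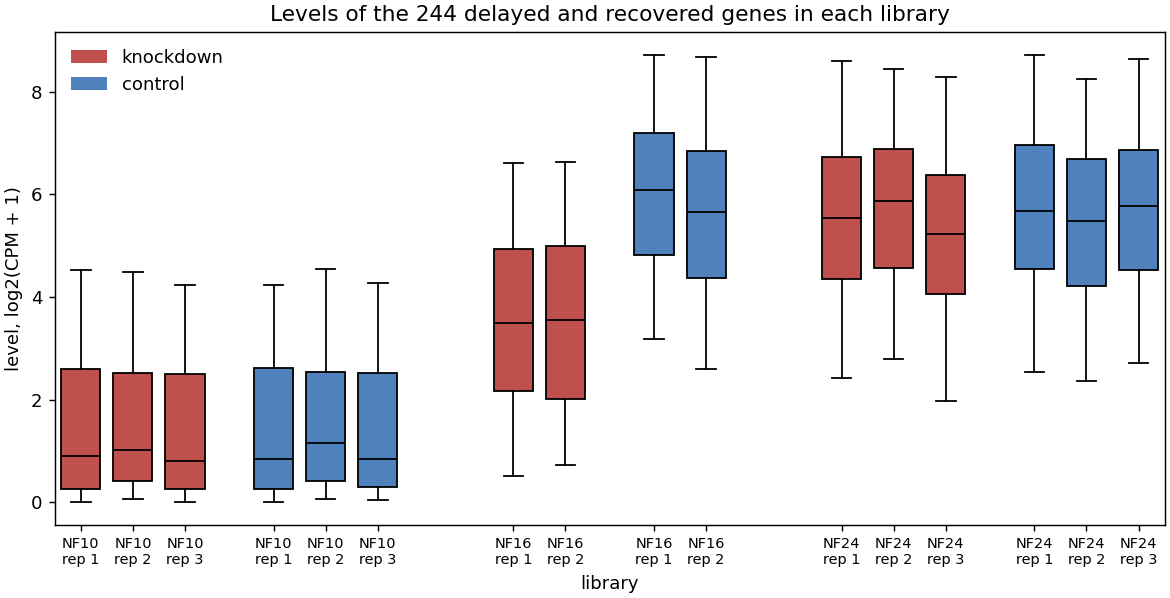
Level of the 244 genes in each of the 16 libraries as log2(CPM + 1), by stage, with knockdown in red left of control in blue; boxes span the quartiles, lines mark medians and whiskers the 5th to 95th percentile. The NF16 knockdown medians of 10.3 and 10.7 CPM lie below the NF16 control medians of 66.7 and 49.3 CPM, and at NF24 the boxes of both conditions overlap.

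As a part of the transcriptome, the 244 genes took up 1.34% and 1.44% of the assigned fragments in the NF16 knockdown libraries, against 5.15% and 4.16% in the NF16 control libraries. At NF24 they took up 3.97%, 4.82% and 2.80% in the knockdown libraries, against 4.68%, 3.71% and 3.84% in the control libraries. At NF10 the share lay between 0.315% and 0.499% in all 6 libraries. Knockdown replicate 3 was again the lowest and knockdown replicate 2 the highest library at tailbud. These shares rest largely on the 2 most abundant genes and do not stand for the typical gene. In NF16 control replicate 1 those genes had 283258 and 107132 of 14218600 assigned fragments. In NF16 knockdown replicate 1 they had 139015 and 45025 of 21938081.

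The 244 genes spanned a wide range of levels. In NF16 controls, 4 of the 244 genes averaged at least 1000 CPM, 74 lay between 100 and 1000 CPM, 140 between 10 and 100 CPM and 26 below 10 CPM. The most abundant had 7412 and 7697 CPM in the NF16 knockdown libraries, against 24705 and 23286 CPM in the NF16 control libraries. At NF24 it had 11651, 16352 and 9604 CPM in the knockdown libraries, against 16197, 11787 and 13193 CPM in the control libraries. This gene was already abundant at gastrula, with means of 1451 CPM in NF10 knockdown and 1436 CPM in NF10 control explants, and its libraries overlapped at NF10 and NF24. The second most abundant gene had means of 2705 CPM in NF16 knockdown and 8484 CPM in NF16 control explants, and of 4699 CPM in NF24 knockdown and 4695 CPM in NF24 control explants.

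The gene at the third rank was close to silent at gastrula, with 0.523, 7.57 and 0.947 CPM in the NF10 knockdown libraries and 1.94, 5.61 and 2.45 CPM in the NF10 control libraries. At NF16 it had 127.1 and 326.6 CPM in the knockdown libraries, against 2394 and 1780 CPM in the control libraries. At NF24 it had 1092, 1447 and 767.4 CPM in the knockdown libraries, against 1540, 1269 and 1070 CPM in the control libraries. Of the 5 most abundant genes this one had the lowest neurula ratio, a log2 ratio of -3.20 of the NF16 means, where the other 4 lay between -1.95 and -1.60.

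At the gastrula stage the choice had used the control level but not the knockdown level. With edgeR's quasi-likelihood test at an adjusted p of 0.05, 0 of the 244 genes differed between NF10 knockdown and NF10 control explants, and the share called over all genes was 0%. At an unadjusted p under 0.05 there were 2 of the 244 genes, and 57 of all 11997. DESeq2 called 0 of the 244, and so did the edgeR fit with the replicate number as a block. The main fit did not use the number, although same-numbered NF10 libraries deviated together, so differences between replicate numbers entered its error. At an unadjusted p under 0.05 the block fit had 9 of the 244 genes, and the edgeR fit of all 6 groups had 13. The count over all genes at that limit was not taken for these fits. The median log2 ratio of the NF10 means was -0.05, with an SD of 0.069 between the 3 knockdown libraries, and 236 of the 244 genes lay within 0.5 log2 units of the control. Knockdown and control libraries did not overlap for 11 of the 244 genes, or 4.51%, against 3.7% of all genes. A difference at gastrula was thus not detected, at levels that were under 1 CPM in NF10 controls for 119 of the 244 genes and with no read in at least 1 NF10 library for 46 of them.

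In controls the change of the 244 genes between NF10 and NF16 had a median of 4.10 log2 units, with a range between 2.01 and 8.91. This rise passed the test for 243 of the 244 genes, where 25.3% of all genes passed as higher, and the count follows from the choice. Between NF16 and NF24 the control median changed by -0.27 log2 units, and the NF24 control mean was below the NF16 control mean for 157 of the 244 genes. In that comparison 24 of the 244 genes passed the test, 9 as higher and 15 as lower, against 29.6% of all genes in either direction, which the limit on the change in controls also fixes.

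At NF16 each of the 244 genes was lower in both knockdown libraries than in both control libraries, which was so for 33.3% of all genes. The median log2 ratio was -2.11, with an SD of 0.093 between the 2 knockdown libraries, and the lowest was -4.52. The ratio was -2 or lower for 134 genes and -3 or lower for 37. The edgeR test called 241 of the 244 as lower, where it called 12.9% of all genes lower. Both values describe the choice and are no evidence for it. The NF16 control libraries differed as well: the level was higher in control replicate 1 than in control replicate 2 for 197 of the 244 genes, while the knockdown libraries were split, with replicate 2 higher for 138.

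The neurula depression was nearly as large in a knockdown library left out of the group means that the choice used. When the rule was applied without NF16 knockdown replicate 1, it chose 284 genes, and their median log2 ratio in that library was -1.99, against -2.07 in the library used. When it was applied without NF16 knockdown replicate 2, it chose 248 genes, with a median of -1.97 in that library, against -2.21 in the library used. In the library left out, the ratio reached -1.5 or lower for 65.8% and 75.4% of the chosen genes, against 9.76% and 9.72% of all genes. The 1169 genes within both limits on the control means, the neurula-onset genes, were low as a class. Their median log2 ratio was -1.31 in NF16 knockdown replicate 1 and -1.51 in replicate 2. For onset genes lowered by the library used but still low at NF24, the shares were 85.9% and 91.0%. The depression was thus not particular to the chosen genes. The control libraries were the same in the choice and in these values. The choice favoured high NF16 control means, so the low ratio in the library left out is in part built in. The read filter and TMM factors came from all 16 libraries.

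The low neurula level was not a full absence. The NF16 knockdown mean was above the NF10 knockdown mean for 235 of the 244 genes, and at least 1 log2 unit above it for 173. The change between NF10 and NF16 had a median of 1.83 log2 units in the knockdown, against 4.10 in controls. Both NF16 knockdown libraries were above all NF10 knockdown libraries for 206 of the 244 genes, or 84.4%, against 29.9% of all genes. With edgeR, 156 of the 244 genes, or 63.9%, were called higher in NF16 than in NF10 knockdown explants, where 17.2% of all genes were. The choice set a ceiling on the NF16 knockdown level and none on the NF10 knockdown level, so these counts stand as a description. Without NF16 knockdown replicate 1 the count was 90 (824 over all genes), and without replicate 2 it was 94 (1124 over all genes).

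The share of the control rise that the knockdown had made by NF16, as the ratio of both log2 rises, had a median of 0.464, with an SD of 0.0153 between the 2 NF16 knockdown libraries. The quartiles were 0.278 and 0.612. The share was above 0.5 for 106 genes, below 0.25 for 54, and at or below 0 for 9. Among the neurula-onset genes that were lowered at NF16 and still low at NF24, a group of 289, the median share was 0.386. Among the 636 neurula-onset genes that were not lowered at NF16 it was 0.823. That group was split off by the NF16 levels that the share also uses, so its higher share follows from the choice.

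**Figure D2:**
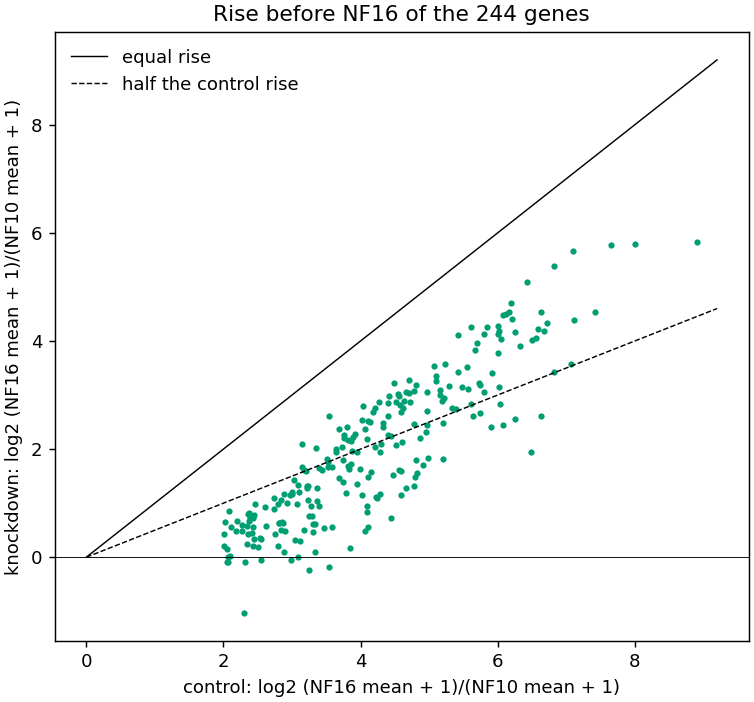
Log2 change between NF10 and NF16 (group means with 1 added) of each of the 244 genes, in control on the horizontal axis and in knockdown on the vertical axis; the solid line marks an equal rise and the dashed line a share of 0.5. The points lie below the solid line by the choice of the genes, 235 of the 244 had a higher NF16 than NF10 knockdown mean, and 106 had a share above 0.5.

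Genes that differed in their gastrula level also differed in the share of the control rise made by neurula. The 119 genes under 1 CPM in NF10 controls had median levels of 3.89 CPM in NF16 knockdown and 26.6 CPM in NF16 control explants, and a median share of 0.408. The 90 genes between 1 and 10 CPM had median levels of 19.8 CPM in NF16 knockdown and 79.7 CPM in NF16 control explants, and a median share of 0.533. The 35 genes at 10 CPM or more had median levels of 43.9 CPM in NF16 knockdown and 183.5 CPM in NF16 control explants, and a median share of 0.340. The share was thus largest in the middle class and smallest in the class that was already expressed at gastrula. The neurula limit of the rule caps the share, and the cap is lower for genes with a smaller control rise. The median NF16 log2 ratio was -2.24, -2.04 and -1.82 from the lowest to the highest class, so it was least low where the share was smallest. No effect of the gastrula level is read from the shares. Adding 1 to the means compresses changes of genes near 0, so shares of the lowest class depend on it.

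Between NF16 and NF24 the change had a median of 1.91 log2 units in the knockdown, against -0.27 in controls. The lowest NF24 knockdown library was above both NF16 knockdown libraries for 235 of the 244 genes, against 30.9% of all genes. The edgeR test called 183 of the 244, or 75%, as higher in NF24 than in NF16 knockdown explants, where 14.9% of all genes were called. The limits on the NF16 and NF24 levels in the rule fix a higher NF24 than NF16 knockdown level for the 244 genes, so nothing is read from these counts. Among the genes still low at NF24, 221 of 289, or 76.5%, were called, and the median change was 2.01 log2 units. That group was also defined by its NF16 and NF24 knockdown levels. A block by replicate number ties NF16 to NF24 libraries by number, and the NF16 numbers were not taken as pairs. Nothing is read from the block count that follows. The count for the 244 genes was 98 without NF16 knockdown replicate 1 (916 over all genes), 31 without replicate 2 (184 over all genes) and 225 with the replicate number as a block (2736 over all genes).

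Taking both stages in 1 fit of all 16 libraries, the knockdown effect was higher at NF24 than at NF16 for 48 of the 244 genes at an adjusted p of 0.05 with edgeR, or 19.7%, where 1.26% of all genes were called. At an unadjusted p under 0.05 there were 212 of the 244 and 1240 of all genes. Among the genes still low at NF24 the count was 44 of 289, or 15.2%. With stage and replicate number together as a block the count was 205 of the 244 genes, with 1121 over all genes. That block pairs the NF16 libraries by number, where same-numbered libraries had a correlation of -0.14, so nothing is read from the higher count. DESeq2 called 158, with 691 over all genes. The choice used all 4 groups of this contrast, so the counts describe the chosen genes. They also turned on single libraries: leaving out any one of the NF16 or NF24 libraries moved the edgeR count of 48. It was 76 without NF24 knockdown replicate 3 (253 over all genes). Without one of the other NF24 libraries it was between 5 and 24 (between 18 and 100 over all genes). Without an NF16 library it fell as well, with 1 library left in a group, and those counts are not given.

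**Figure D3:**
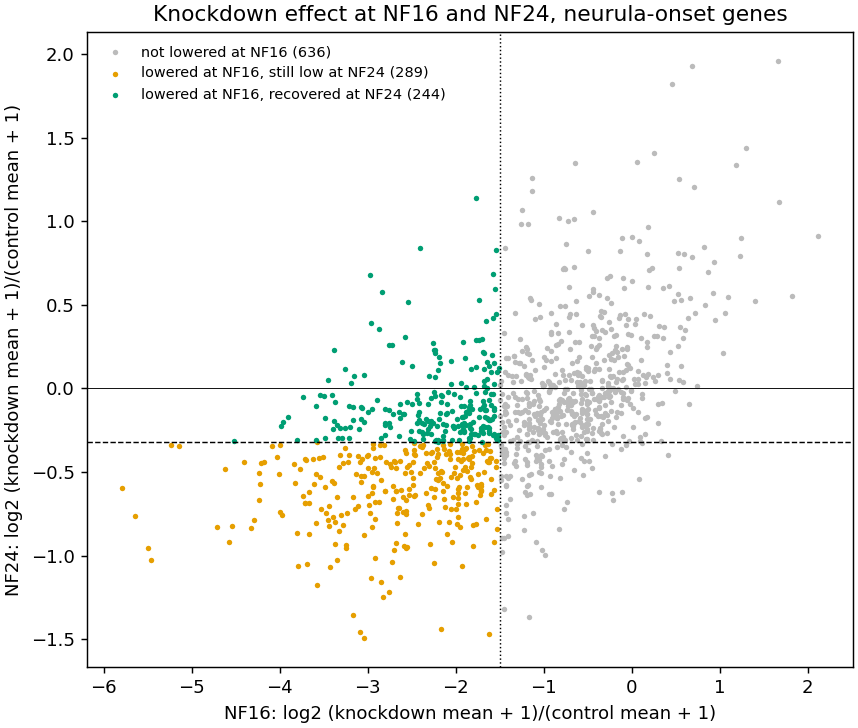
Log2 ratio of knockdown over control means (1 added) at NF16 on the horizontal axis and at NF24 on the vertical axis for the 1169 neurula-onset genes, coloured by the thresholds that define them, drawn as a dotted line at -1.5 and a dashed line at 0.8 times control. The 244 chosen genes fill the upper left field, the 289 still low genes lie just below them, and the points run across the dashed line without a gap.

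At NF24 the median log2 ratio of knockdown over control means was -0.15, within a range of -0.32 to 1.14, and the SD between the 3 knockdown libraries was 0.294. Without NF24 knockdown replicate 3 the median was 0.02. The knockdown mean was above the control mean for 61 of the 244 genes and remained below it for the others. The edgeR test called 0 of the 244 genes as different, and the share called over all genes was 0%, so a count of 0 does not set the 244 genes apart. At an unadjusted p under 0.05 there was 1 of the 244 genes, and 1227 of all genes. DESeq2 called 0 of the 244 and 269 of all genes, and edgeR with the replicate number as a block called 0 of the 244 and 4 of all genes. Knockdown and control libraries did not overlap for 6 of the 244 genes, or 2.46%, against 15.9% of all genes and 85 of the 289 still low genes. The tailbud contrast was used in the choice, so these counts are a description as well.

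The threshold at tailbud cut through a continuous range. Of the 533 neurula-onset genes lowered at NF16, 121 had a tailbud ratio between 0.8 and 0.9 and 122 had one between 0.7 and 0.8. The last gene inside had a ratio of 0.80028 and the first outside 0.79996. Only 61 of the 533 reached a ratio of 1, and 20 were below 0.5. Just inside and just outside the other limits, the control rise was 2.01 and 1.99 log2 units, the neurula log2 ratio -1.5025 and -1.4997, and the absolute change in controls after neurula 0.999 and 1.003 log2 units.

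The NF24 knockdown libraries differed in how many of the 244 genes they brought back. In replicate 1, 181 genes reached 80% of the control mean, or 74.2%. In replicate 2, 208 did, or 85.2%. In replicate 3 only 87 did, or 35.7%. The NF24 control libraries, set against their own mean, had 223, 187 and 211 genes at that level. The median log2 ratio to the control mean was -0.09, 0.06 and -0.51 in knockdown replicates 1, 2 and 3, against 0.12, -0.17 and -0.01 in control replicates 1, 2 and 3. Replicate 3 was the lowest of the 3 knockdown libraries for 156 of the 244 genes, and 44 genes reached 80% of the control mean in all 3, 144 in 2 and 56 in 1. The mean of the group reached 80% by the choice, and all 3 libraries entered that mean. Most of the 244 genes reached 80% in knockdown replicates 1 and 2, and a minority did in knockdown replicate 3. In a library left out of the choice, 56.8%, 70.1% and 21.6% of the genes then chosen reached it in replicates 1, 2 and 3. These shares lay below those of all genes, as given further below.

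The order of the libraries was the same in the genes still low at NF24, with medians of -0.52, -0.28 and -1.16 in knockdown replicates 1, 2 and 3. The onset genes that were not lowered at NF16 had another order, with medians of -0.09, -0.15 and -0.01, and over all genes the medians differed little, with -0.03, -0.02 and -0.03. Knockdown replicate 3 had 40.5% unmapped fragments and 11874933 assigned fragments. Knockdown replicate 1 had a higher unmapped share, 51.2%, and fewer assigned fragments, 10692685, and its median ratio for the 244 genes was -0.09. The part of depth and unmapped share in the low values of replicate 3 was not tested. With all libraries thinned to the smallest total, the rule chose 249 genes, of which 219 were among the 244.

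Same-numbered knockdown and control libraries deviated together at NF24, so ratios within a number were also taken. The median log2 ratio of the 244 genes was -0.21 in replicate 1, 0.29 in replicate 2 and -0.49 in replicate 3. The level reached 80% of the same-numbered control for 151, 232 and 75 of the 244 genes. Replicate 2 was thus above the control of its number, and replicates 1 and 3 were below theirs. The pair of knockdown replicate 2 is less sure. Over all genes its deviations had a correlation of 0.217 with control replicate 2 and 0.166 with control replicate 1. Over the 244 genes the values were 0.420 and -0.046.

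The tailbud level was also read in libraries left out of the group means of the choice, with the read filter and TMM factors of all 16 libraries. It was below that of the libraries used in replicates 1 and 3 but not in replicate 2. When the rule was applied without NF24 knockdown replicate 1, it chose 213 genes, whose median log2 ratio in that library was -0.22, against -0.10 in the libraries used. Without replicate 2 it chose 154 genes, with a median of -0.08 in that library and -0.14 in those used. Without replicate 3 it chose 343 genes, before the limit of 300 that the rule sets, with a median of -0.76 in that library and -0.04 in those used. At least 80% of the control mean was reached in the library left out by 56.8%, 70.1% and 21.6% of these genes, against 74.1%, 78.3% and 67.5% of all genes. The chosen genes were thus below all genes in each library left out, and furthest in replicate 3.

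The split between genes back at tailbud and genes still low could be read in the same way. In replicate 1 left out, the 320 genes still low by the other libraries had a median of -0.41, against -0.22 for the 213 genes back. In replicate 2 left out, the 379 still low genes had a median of -0.14, against -0.08 for the 154 genes back, and 67.0% and 70.1% of them reached 80% of the control mean. In replicate 3 left out, the 190 still low genes had a median of -1.02, against -0.76 for the 343 genes back. Genes back by the other libraries stood above the still low genes in each of the 3 libraries, by 0.19 log2 units in replicate 1, 0.06 in replicate 2 and 0.26 in replicate 3. The control libraries were shared by the choice and these values. A low NF24 control mean raises the ratio in both, so the direction of the distances is in part built in. The distances were not tested.

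**Figure D4:**
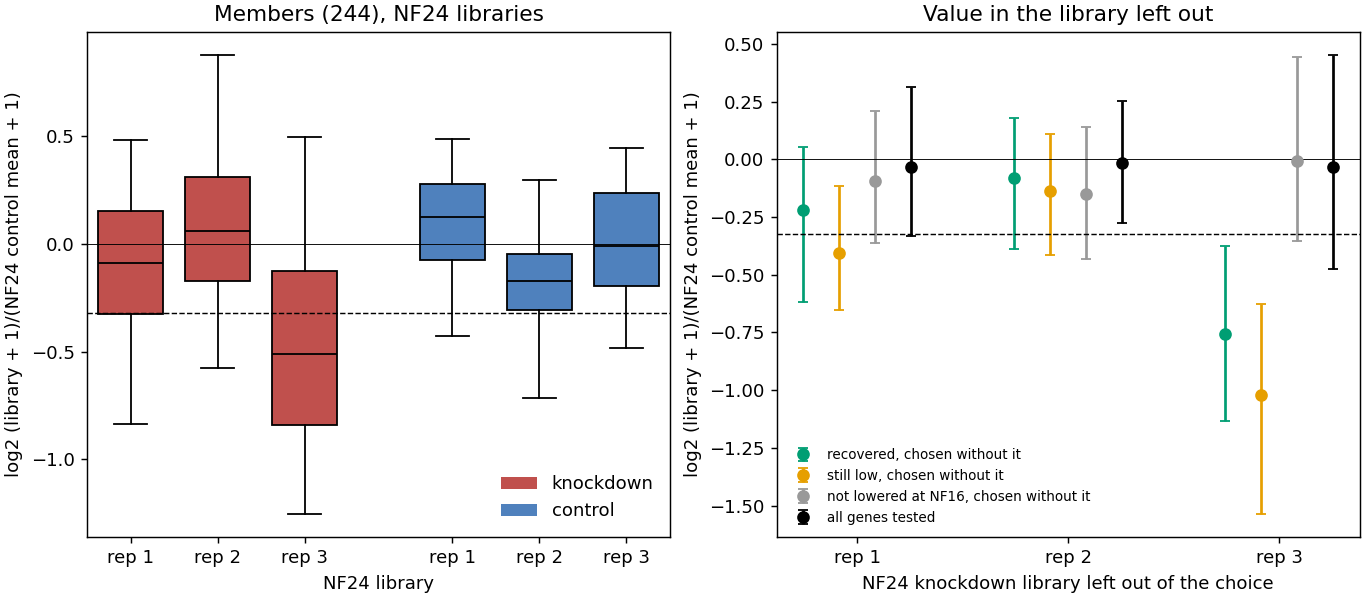
Left, log2 ratio of each NF24 library to the NF24 control mean (1 added) for the 244 genes, knockdown in red and control in blue, with boxes at the quartiles and whiskers at the 5th to 95th percentile. Right, the same ratio in a knockdown library left out of the choice, as median and quartiles, for genes back at tailbud, still low, not lowered at NF16 and all genes; the dashed line marks 0.8 times control, and the value of genes back is lowest in replicate 3, at -0.76.

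The genes with the lowest neurula ratio were low at NF16 and expressed at NF24. Xetrov90014102m.g had 1.44 and 6.03 CPM in the NF16 knockdown libraries, from 27 and 75 reads, against 132.1 and 83.4 CPM in the NF16 control libraries. At NF10 it had 0, 0.582 and 0.0861 CPM in the knockdown libraries, against 0, 0.348 and 0.287 CPM in the control libraries. At NF24 it had 99.6, 129.2 and 43.0 CPM in the knockdown libraries, against 136.4, 114.1 and 88.3 CPM in the control libraries. The libraries were far apart at NF16, a log2 ratio of -4.52, and overlapped at NF24, where knockdown replicate 3 was the lowest of the 6.

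Xetrov90021679m.g had 5.81 and 3.78 CPM in the NF16 knockdown libraries, from 109 and 47 reads, against 80.5 and 101.4 CPM in the NF16 control libraries, a log2 ratio of -3.99. At NF24 it had 77.7, 33.2 and 36.8 CPM in the knockdown libraries, against 77.9, 33.6 and 61.6 CPM in the control libraries. Replicates 1 and 2 of both conditions were nearly equal at tailbud, and replicate 3 was lower in the knockdown. At NF10 the gene had 0.673, 3.11 and 2.24 CPM in the knockdown libraries, against 0.736, 8.84 and 3.51 CPM in the control libraries, with both conditions overlapping.

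The genes with the highest tailbud ratio went past the control mean. Xetrov90025692m.g had 50.7, 185.6 and 110.7 CPM in the NF24 knockdown libraries, against 43.5, 85.5 and 63.6 CPM in the NF24 control libraries, a log2 ratio of 0.84. At NF16 it had 13.4 and 8.60 CPM in the knockdown libraries, against 100.7 and 24.5 CPM in the control libraries. Each NF24 knockdown library was above the control library of its number, but knockdown replicate 1 lay inside the control range, so the groups overlapped, and the NF16 controls differed from each other more than the NF16 knockdowns did.

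Xetrov90008262m.g had 853.6, 240.8 and 432.5 CPM in the NF24 knockdown libraries, against 336.4, 120.3 and 403.9 CPM in the NF24 control libraries, a log2 ratio of 0.82. At NF16 it had 53.9 and 91.2 CPM in the knockdown libraries, against 254.3 and 173.0 CPM in the control libraries, a log2 ratio of -1.55. It was near 0 at gastrula, with means of 0.768 CPM in NF10 knockdown and 0.906 CPM in NF10 control explants, and by NF16 the knockdown had made 0.789 of the control rise. At NF24 the knockdown was again above the control within each replicate number, and the groups overlapped. None of the 4 genes passed the test at NF24, where the smallest adjusted p among the 244 genes was 0.462 with edgeR.

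**Figure D5:**
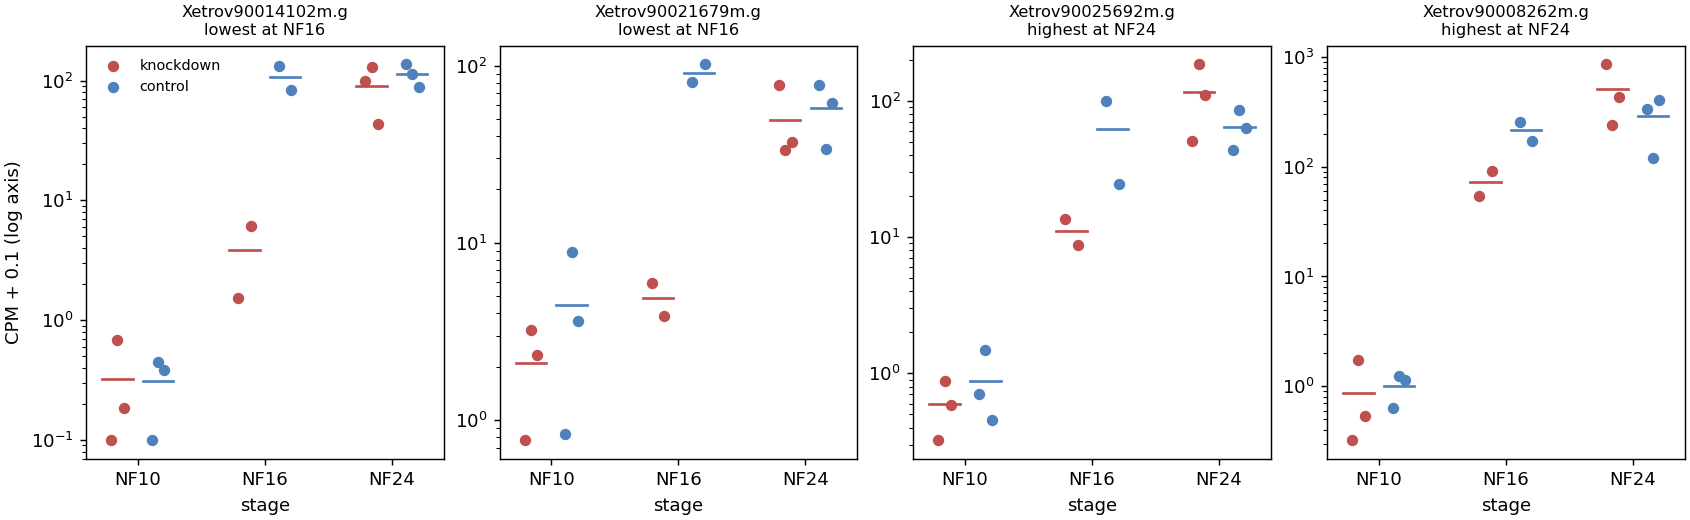
CPM with 0.1 added, on a log axis, of the 4 identified genes in all 16 libraries by stage, knockdown in red left of control in blue, each dot a library and each line a group mean. The genes lowest at NF16 had log2 ratios of -4.52 and -3.99 there, and all 4 genes had overlapping groups at NF24.

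Set against the rest of the neurula-onset genes, the 244 made up 20.9% of the 1169 onset genes and 45.8% of the 533 that were lowered at NF16. Their control levels were close to those of the still low genes, with medians of 61.1 and 53.1 CPM at NF16, and below the median of 108 CPM of the onset genes that were not lowered. Their neurula ratio was less low, with a median of -2.11 against -2.57 in the still low genes, and the medians at tailbud were -0.15 and -0.57. The tailbud medians differ by the choice, since the tailbud ratio split these groups, and both groups were cut at the same neurula limit. No link between the neurula and tailbud values is read from these medians. They share their libraries with the choice, and their differences were not tested.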

How the data were processed

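Stage, morpholino and replicate number were taken from the labels. The names of the deposited tables mark the neurula stage differently and number several NF16 and NF24 libraries differently from the titles, which bears on the replicate block and on ratios within a number; the titles were followed. The deposited values are raw counts of fragments per gene, which the authors made by aligning stranded, rRNA-depleted paired reads to X. tropicalis v9.1 with STAR (2.4.2a in the submitters' processing notes) and counting over Xenbase gene models in the same run. The strand column with the larger total was used. Multimapping fragments were not counted, since that tally was 0, so genes with near-identical copies may be undercounted. Counting intervals were not computed. Replicates are labelled separate samples, and p-values measure the spread between them.

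Genes were kept where 12 or more of the 16 libraries held a read, which leaves out genes with no read in any NF10 library. The 244 genes were chosen by the rule given above, on TMM CPM over all libraries, with a limit of 300 that was not reached. Each comparison was fitted on its own libraries with edgeR 4.0.16 (quasi-likelihood, TMM, Benjamini-Hochberg over all genes tested, threshold 0.05) in R 4.3.3. The difference of effects was fitted on all libraries. DESeq2 1.42.0 was an alternative. The code was tested on simulated data. The genes, lists and comparisons were chosen with earlier results of these data known. Applying the rule without 1 library and reading that library, and ratios within same-numbered libraries, were added after seeing the data.

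Genes named by identifier were the 2 with the lowest NF16 log2 ratio (control mean at least 5 CPM, both knockdown libraries below both controls) and the 2 with the highest NF24 log2 ratio (control mean at least 5 CPM). The 5 most abundant in NF16 controls were described by rank. Marker lists for epidermal cell types, neural tissue, mesoderm and endoderm were not analysed here, since no identifier matched the table of 28858 genes of UCB_Xtro_10.0.

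Same-numbered knockdown and control libraries were correlated in their deviations from the group means. The correlations over all genes were 0.802, 0.820 and 0.701 at NF10 and 0.389, 0.217 and 0.520 at NF24. Libraries of unlike numbers had negative correlations at both stages, except NF24 knockdown replicate 2 with control replicate 1, at 0.166. Deviations from a group mean add up to 0, so positive same-number correlations push the others below 0. The negative values are thus no separate support for a pairing. The numbers of the titles thus pair the NF10 libraries, and at NF24 the pairing of knockdown replicate 2 is less sure. At NF16 the correlation was -0.14, and there the numbers were not taken as pairs. No pair of libraries of a group agreed within sampling noise, with a chi-square per degree of freedom of at least 55.5.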

Additional observations from a re-analysis of the deposited data

Results flagged for a closer look

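The knockdown effect differed between NF24 and NF16 for 48 of the 244 genes in the test of that difference, which the choice of the genes had used. The next values come from tallies that no comparison used. The opposite strand held 1.25% and 1.06% of the 244 genes' stranded counts in the NF16 knockdown libraries, above the 0.544% and 0.519% of the NF16 controls. The choice lowered the genes' own-strand counts in the NF16 knockdown, which by itself raises this share, so nothing is read from it. Over all genes the opposite strand held 1.55% and 1.45% in the NF16 knockdown libraries, against 1.20% and 1.23% in the NF16 controls. Of the 244 genes' stranded counts, the opposite strand held 1.05% and 1.38% in NF24 knockdown replicates 1 and 3. The highest NF24 control for these genes, replicate 2, had 1.045%. Over all genes it held 4.58% and 3.13% in NF24 knockdown replicates 1 and 3, against 1.76%, 2.39% and 4.05% in the NF24 controls. Unmapped fragments made up 27.1% of NF16 knockdown replicate 1, against 26.1% and 21.6% in the NF16 controls. They made up 51.2% and 40.5% of NF24 knockdown replicates 1 and 3, where the highest NF24 control had 34.0%. Groups of 2 or 3 libraries are too small for a test of outlying samples.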

How the results depend on the processing

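Of 152 alternative values, 122 stayed near the reported one and 30 moved. Near meant within 1.5 times for a count, and closer than the SD between knockdown libraries for a median. The counts of 0 at NF10 and at NF24 had 13 alternatives each, all of them 0 and among the 122. So were all 12 alternatives of the count of genes lower at NF16, a contrast that the rule used. The 122 are thus no measure of how stable the other results were. Numbers of chosen genes were compared after the limit of 300. With a neurula log2 ratio of at most -1 the rule chose 300 (367 before the limit), of which 212 were among the 244. Called genes were counted in a direction set beforehand, and a turn of direction was not looked for. The rule chose 61 genes with a tailbud ratio of at least 1, and between 154 and 300 genes when a library was left out: 154 without NF24 knockdown replicate 2, of which 144 were among the 244, and 300 (343 before the limit) without NF24 knockdown replicate 3, of which 203 were. Without NF24 knockdown replicates 1 and 3, an alternative chosen after seeing the data, it chose 300 (362 before the limit), of which 171 were among the 244. With total counts only it chose 216, of which 177 were. The median NF16 log2 ratio was -2.20 with RLE factors, -1.96 with total counts only and -2.30 with 0.1 added to the means, and it ranged between -2.24 and -1.93 with a library left out. The median share of the control rise was 0.429 with total counts only and 0.531 with 0.1 added, and 0.439 to 0.492 with a library left out. The median NF24 log2 ratio ranged between -0.26 without NF24 knockdown replicate 2 and 0.02 without replicate 3, where its sign turned. Genes called higher in NF16 than in NF10 knockdown numbered between 90 and 157 with a library left out, and genes called higher in NF24 than in NF16 knockdown between 31 and 201. For the difference of effects the count was between 5 and 76 with an NF10 or NF24 library left out (between 18 and 253 over all genes). It fell by over 1.5 times without an NF16 library. DESeq2 called 158 (691 over all genes). With the replicate number as a block, the count for the difference of effects was 205 (1121 over all genes). The block changed no other count by over 1.5 times. For the difference of effects the block also paired the NF16 libraries by number. In the comparisons of NF16 knockdown with NF10 or NF24 knockdown it tied libraries of unlike stages by number, which was not examined. At NF16, where the numbers did not pair the libraries, the block called 241 of the 244 genes as lower (1323 of all genes), and the crossed pairing, chosen after seeing the data, 244 (2089 of all genes). With 2 libraries per condition at NF16, the neurula level rests on few samples, and 26 of the 244 genes had under 10 reads in an NF16 knockdown library. The cause of the moved values was not tested, beyond the fewer samples when a library is left out.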
